A study of Caenorhabditis elegans with 8 samples.

Results

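Chromosome V carried 212 of the 1207 genomic regions that the authors listed as specific to worms with a FLAG-tagged MSTR-1 protein. The 212 were chosen by chromosome alone, so neither their enrichment nor their genes played a part in the choice. RNA immunoprecipitation followed by sequencing (RIP-seq), in which an antibody pulls down a protein with the RNA crosslinked to it, was made from Caenorhabditis elegans young adults kept at 25 °C on standard growth plates. The tagged strain, WD656, carries the allele on49, which adds 3xFLAG to MSTR-1 at its own gene F22D6.2 on chromosome I. The control strain was wild-type N2, with no FLAG. Worms of both strains were crosslinked in 2% formaldehyde for 30 min, and each strain gave a RIP and an input from whole worm lysate, in 4 groups of 2 biological replicates. The data were 1 table of regions with no value per library, and all 212 region names point to RIP replicate 2 of the tagged strain. Replicate errors and library depths are therefore unknown, and no test between strains could be made.

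Chromosome V is the longest worm chromosome and the one richest in tandem arrays of young, fast-duplicating gene families. On worm autosomes the arms recombine often and hold repeats and divergent families, while the centre recombines rarely and holds more conserved genes. Chemoreceptor genes, which encode seven-pass membrane receptors for odours and tastes, form many of these arrays, and most of them are used by a few sensory neurons each. A RIP region can lie only where RNA was present, and in lysate of whole worms fewer cells of a type and less RNA per cell cannot be told apart.

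Each region comes with the authors' fold, the ratio of reads in the immunoprecipitate over a control at the highest point (the summit), and with a −log10 q from the authors' deposited table, its significance after correction. The read number at the summit and the control level were solved for from the fold and the −log10 p, and came out within 0.02 of a whole number in 204 of the 212 regions. Which library served as the control of the fold was not given, so it need not be N2. The lowest control level was 13.49 reads, and 39 regions lay on it. Intervals on read numbers are exact 95% Poisson intervals, those on shares are exact 95% binomial intervals, and both cover counting error only.

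Of the 4995 protein-coding genes on chromosome V, 174 carried a region, a share of 3.48% (interval 2.99 to 4.03). Over all 6 nuclear chromosomes the share was 4.78%, and over the other chromosomes together it was 5.21% (4.86 to 5.58). Chromosomes II, X, IV, I and III had 3.83%, 4.98%, 5.24%, 5.53% and 6.85%, so V was lowest, with an interval that overlapped that of II (3.22 to 4.53). Chemoreceptor genes made up 17.8% of the protein-coding genes on V and 2.82% of those elsewhere. With these genes left out, the share was 4.24% on V (3.64 to 4.90) and 5.36% on the other chromosomes (4.999 to 5.74). Chromosome II then had 4.03% (3.38 to 4.76), so V was no longer the lowest, and the intervals of V and II overlapped. The distance between V and the rest was narrower without the chemoreceptors, and no test of the difference was made. No expression values were used, so how many of the remaining genes were transcribed in these worms was not tested.

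The regions of chromosome V lay inside genes. Each of the 212 overlapped a protein-coding gene, 210 lay wholly inside one, and 3 touched 2 genes. Of the 995 regions elsewhere, all but 8 overlapped a protein-coding gene too, and 57 touched 2 or more. Their median width was 636.5 bp, near the 645 bp of the regions elsewhere. Among the carrying genes, 144 had 1 region, 24 had 2, and 6 had 3 or more. The genes that carried a region had a median span of 1739 bp, where all genes of V had 1744 bp. Elsewhere the carrying genes had 2480 bp and all genes 2141.5 bp.

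The left arm, centre and right arm were divided at 6 and 17 Mb. The centre held 134 regions (63.2%), the left arm 61 (28.8%) and the right arm 17 (8.02%). Their shares of the protein-coding genes of V were 57.4%, 27.4% and 15.1%, in the same order. On the left arm 49 of 1371 genes carried a region, or 3.57% (2.66 to 4.70). In the centre 109 of 2869 genes did, or 3.80% (3.13 to 4.57). On the right arm it was 16 of 755, or 2.12% (1.22 to 3.42). The shares of the left arm and the centre were nearly the same, and the right arm was lower, with an interval that overlapped both.

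Leaving out chemoreceptor genes moved the left arm most. Chemoreceptors were 24.9% of the genes there, 14.9% in the centre and 15.8% on the right arm. Of the other genes, 4.76% carried a region on the left arm (3.54 to 6.24), 4.47% in the centre (3.68 to 5.36) and 2.52% on the right arm (1.45 to 4.05). The right arm therefore stayed the lowest without them, with an interval that overlapped both others. Other gene families were not left out by arm.

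**Figure D1:**
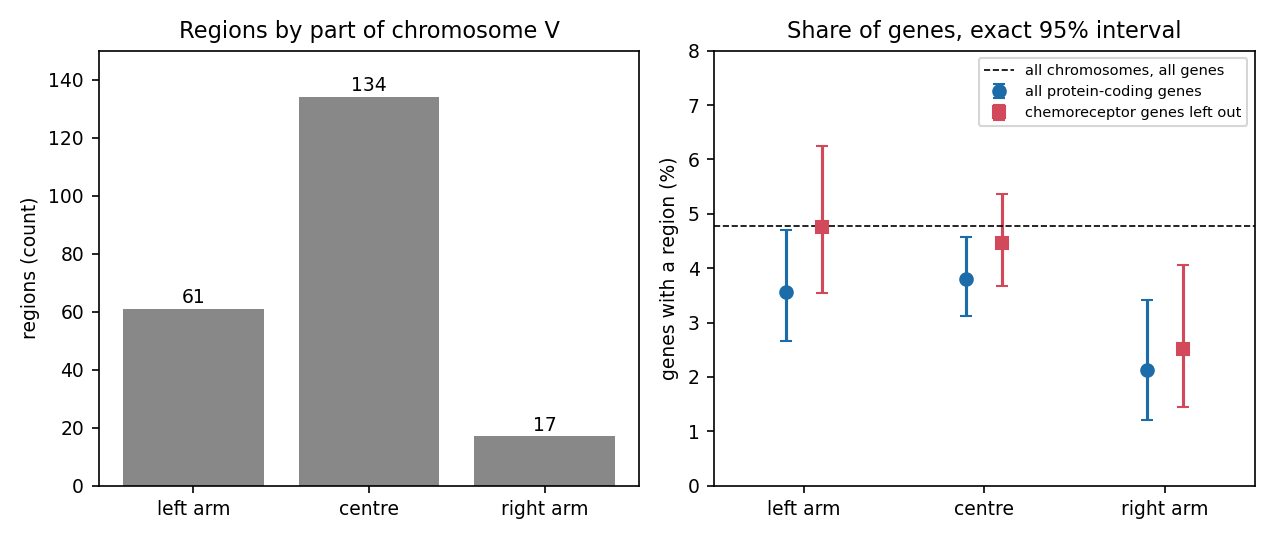
Left, the number of regions in the left arm, centre and right arm of chromosome V (61, 134 and 17). Right, the percentage of protein-coding genes with a region in each, with all genes as circles and without chemoreceptor genes as squares, bars being exact 95% intervals and the dashed line the 4.78% of all chromosomes; the right arm is lowest in both.

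Within the arms the density was uneven. The stretch from 6 to 7 Mb held 24 regions in 19 of its 192 genes (9.9%), that from 13 to 14 Mb 25 regions in 19 of 235 genes (8.09%), and that from 11 to 12 Mb 22 regions in 15 of 245 genes (6.12%). These 3 lie in the centre. The emptiest part ran across the border of centre and right arm. From 16 to 17 Mb there were 3 regions, from 17 to 18 Mb 1 and from 18 to 19 Mb 1, in 2 of 299, 1 of 210 and 1 of 187 genes. The end of the right arm, from 20 Mb on, was filled again, with 11 regions in 10 of 177 genes (5.65%). Chemoreceptors were 30.1% and 36.2% of the genes from 16 to 17 and from 17 to 18 Mb, but 6.95% of those from 18 to 19 Mb. That last stretch was nearly empty with few chemoreceptors in it.

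No chemoreceptor gene carried a region. The chemoreceptor list, made from 23 symbol classes of the sr and str kind and odr-10, had 1310 protein-coding members, of which 888 (67.8%) lie on V. The largest classes on V were srh with 180 genes, str with 156 and srw with 95. The exact interval of 0 in 888 reaches 0.415% on V, and that of 0 in 1310 reaches 0.281% over all chromosomes. Taken as 3 counts of the total, the limits are 0.338% and 0.229%. Of all protein-coding genes, 3.48% on V and 4.78% over all chromosomes carried a region. Members known only by a sequence name are not in the list.

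Chemoreceptor-rich stretches were searched in bins of 200 kb. A bin counted as rich when at least 20% of its protein-coding genes were chemoreceptors, as held for 35 of 105 bins. Of the rich bins 19 had no region, while 9 of 60 bins with a smaller chemoreceptor share and 2 of 10 bins with no chemoreceptor had none. The 35 rich bins held 34 regions, the 60 bins 154 and the 10 bins 24. The genes of the rich bins that were not chemoreceptors carried a region in 23 of 1228 cases, or 1.87% (1.19 to 2.80). In the 60 bins this share was 5.23% (4.39 to 6.18) and in the 10 bins 5.33% (3.29 to 8.12). Genes of the rich bins outside the chemoreceptor list thus also had a lower share than those of the other bins. They can include receptors known only by a sequence name, and other families with few or no regions on V. The part of such genes in the lower share was not tested. Neighbouring genes are not independent, and no test was made over bins.

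**Figure D2:**
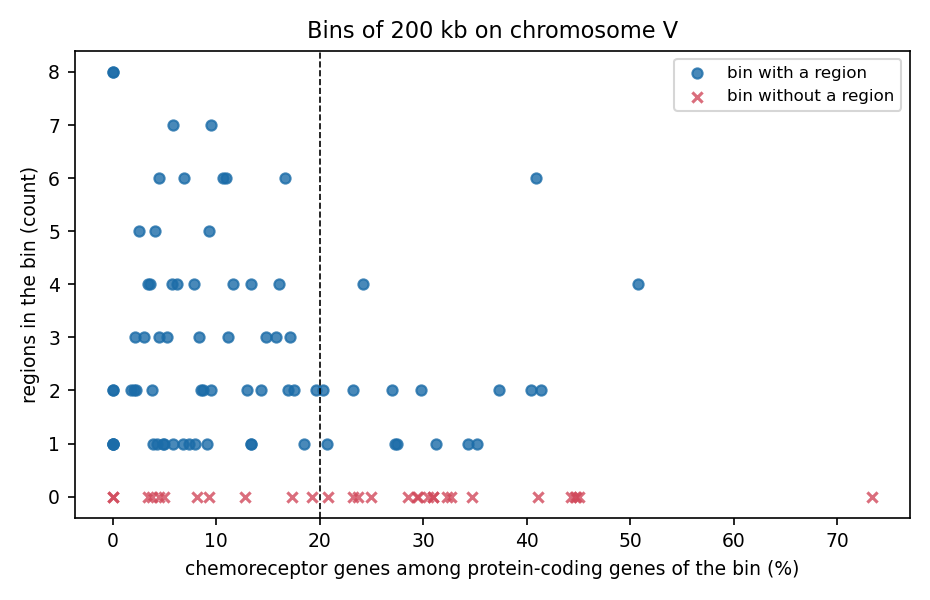
Each point is a 200 kb bin of chromosome V, with the percentage of chemoreceptors among its protein-coding genes across and its number of regions up; crosses are bins without a region, and the dashed line marks 20%. To the right of the line 19 of 35 bins have no region, and the bin with the highest chemoreceptor share, 73.3%, has none.

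The 19 rich bins without a region joined into 12 stretches with 3800 kb in all, which held 1013 protein-coding genes, 360 of them chemoreceptors. The longest, V:17000001-17800000 at the start of the right arm, had 66 chemoreceptors in 178 genes. The next, V:2800001-3400000 on the left arm, had 80 in 172, and its first bin had the highest share on the chromosome, 44 of 60. Of the 400 kb stretches, V:4000001-4400000 on the left arm had 24 in 94, and V:15600001-16000000 in the centre had 49 in 131. The other 8 stretches were single bins, with 23.7% to 45.1% chemoreceptors. By their midpoints 4 of the 12 lay on the left arm, 6 in the centre and 2 on the right arm. These counts are not scaled to length. The left arm has 6 Mb, the centre 11 Mb and the right arm 3.92 Mb, and the stretches differ in length.

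The 16 rich bins with regions show which genes stood among the receptors. The bin V:600001-800000 had 33 chemoreceptors in 65 genes, and its 4 regions all lay in icl-1, which encodes the glyoxylate cycle enzyme. The bin V:2600001-2800000 had 18 in 44 genes. Its 6 regions lay in nuo-5, a complex I subunit of the respiratory chain, and in its neighbour C24B9.3. The bin V:16400001-16600000 had 24 in 58, and both of its regions lay in cpl-1, a cathepsin L protease. The other rich bins with regions had, among others, the lysozyme gene lys-7, the glycogen phosphorylase gene pygl-1, the purine synthesis gene adss-1 and the clathrin light chain gene clic-1. Genes of this paragraph and of the other paragraphs on function that are not set by the naming rule were chosen after their values were seen.

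The gaps between neighbouring regions had a median of 45.5 kb on V and 29.1 kb on the other chromosomes together. Wide spacing was not particular to V, since X had a longer median, 50.03 kb, and II had 42.4 kb. The medians of I, III and IV were shorter, at 26.92, 21.5 and 25.86 kb. Of 211 gaps on V, 8 were over 500 kb, against 12 of 990 elsewhere, of which X had 7. The longest gap of the whole list was on V, 1258 kb from 16595111 to 17853594, between cpl-1 and tcc-1. It held 302 protein-coding genes, of which 34.4% were chemoreceptors, with 24 C-type lectins, 23 genes of the F-box, BTB and MATH domain list and 4 nuclear hormone receptors. The gap that follows, 784 kb from tcc-1 to the collagen gene col-42, had 12 chemoreceptors in 142 genes. The gap of 772 kb from C24B9.3 to lys-7 on the left arm had 215 genes, of which 48.4% were chemoreceptors. The gap of 645 kb from col-147 to lys-1 in the centre had 29 in 177, and that of 613 kb from T26H5.9 to F14H3.6 had 63 in 189, with 20 nuclear hormone receptors. Together these 5 gaps held 312 chemoreceptors in 1025 genes (30.4%). The share differed widely between them, from 8.5% to 48.4%.

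The regions that flank the longest gap were unlike each other. cpl-1 had 2 regions, with folds of 1.71 from 218 reads (190.0 to 248.9) over a control of 127, and of 1.99 from 186 reads (160.2 to 214.7) over 93.2. tcc-1 had 1, with a fold of 1.74 from 33 reads (22.7 to 46.3) over 18.5. Its −log10 q in the authors' deposited table was 1.45, close to the lowest on V, 1.36. The longest gap and the one after it are therefore parted by a single region of low read number.

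The region numbers have holes. The numbers rise with position on each chromosome and run from 1033 to 1274 on V, which leaves 30 of 242 numbers (12.4%) unlisted, against 218 of 1213 (17.97%) within the other chromosomes. If the numbers were given by position before the strain filter, each unlisted one lies between its listed neighbours. The longest gap held 0 unlisted numbers, as did the gaps from tcc-1 to col-42 and from C24B9.3 to lys-7, and the other 2 of the 5 longest held 1 each. At most 3 unlisted numbers fell into 1 gap, and 23 of 211 gaps had any.

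**Figure D3:**
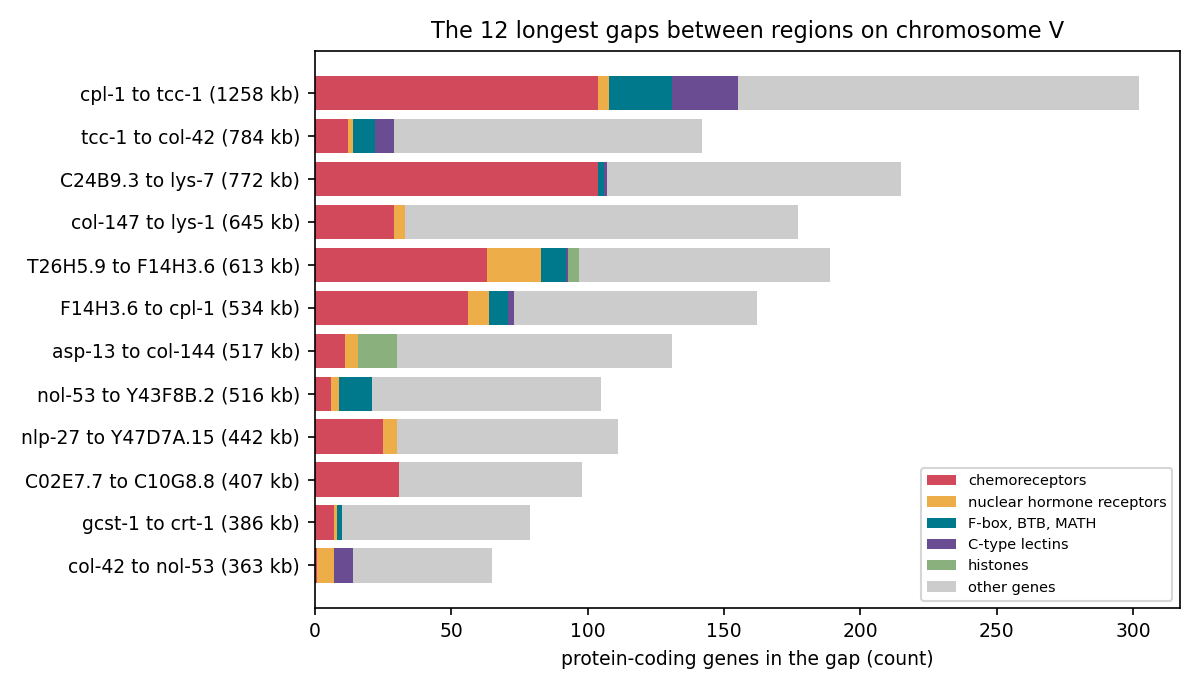
Bars give the number of protein-coding genes in each of the 12 longest gaps between neighbouring regions on chromosome V, named by the genes at both ends, with colours for gene families. The gap from cpl-1 to tcc-1 has 302 genes, 34.4% of them chemoreceptors, while the gap from asp-13 to col-144 has 11 chemoreceptors and 14 histone genes.

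Fold values on V were moderate, and lower where the control level was high. Only regions that passed the authors' selection are listed. The lowest fold listed on V was 2.00 at the lowest control and 1.14 above 100 reads. The relation is therefore set in part by which folds could pass at each control level. The median fold was 2.05 on V (quartiles 1.74 and 2.44, range 1.14 to 5.16) and 2.13 elsewhere. On V 121 regions had a fold of 2 or more (57.1%, against 58.4% over all regions), 17 had 3 or more (8.02%, against 10.7%), and 4 had 4 or more (1.89%, against 1.91%). These shares lie near those over all regions. The control level was higher on V, with a median of 28.7 reads against 22.3, and 51 regions of V (24.1%) had a control above 100 reads where 16.8% had elsewhere. Within classes of control level the medians did not all go the same way. At the lowest control the median fold was 2.28 on V and 2.42 elsewhere. In each higher class the median was higher on V. It was 2.22 against 2.14 up to 50 reads, 2.00 against 1.81 from 50 to 100, and 1.64 against 1.56 above 100. These differences were not tested. The median fold was 1.99 on the left arm, 2.07 in the centre and 2.07 on the right arm, over median controls of 37.0, 29.7 and 17.2 reads.

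**Figure D4:**
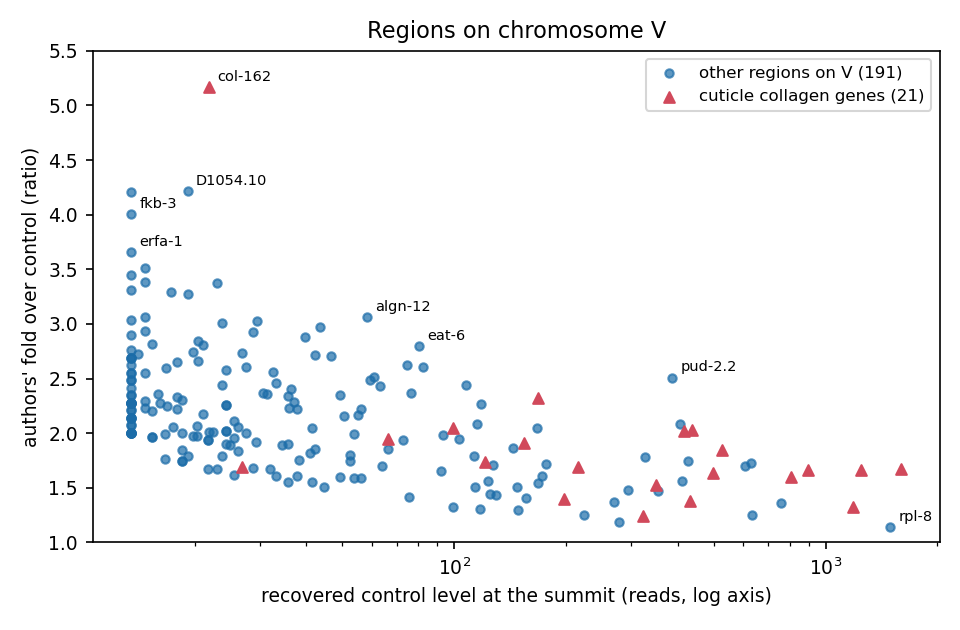
Each point is a region of chromosome V, with the recovered control level in reads on a log axis across and the authors' fold up; triangles are the 21 regions in cuticle collagen genes. Most collagen regions lie at high control and folds under 2, while col-162 has the highest fold, 5.16.

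The 25 regions of V with the highest folds lay in 23 genes, and 11 of the regions lay in genes without a gene name. They were spread over the left arm (6), the centre (17) and the right arm (2). The cuticle collagen gene col-162 led at V:13441977-13442473, with 117 reads (96.8 to 140.2) over a control of 21.8, a fold of 5.16. D1054.10 followed with 84 reads over 19.15 and a fold of 4.22 at V:10792122-10792742. T04F3.1 had 4.21 at V:11740268-11742729, from 60 reads (45.8 to 77.2) over the lowest control. fkb-3, which encodes a peptidyl-prolyl isomerase of the FKBP kind, had 4.0 at V:7225561-7226090 from 57 reads (43.2 to 73.9). The read intervals of T04F3.1 and fkb-3 overlap, so their order is not set by the counts.

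The next regions lay in genes of mixed function. erfa-1, the release factor that ends translation, had a fold of 3.66 from 52 reads (38.8 to 68.2). ahsa-1, whose product stimulates the HSP90 chaperone, had 3.38 from 52 reads over 14.7. In succession on the right arm lay tmed-4, a p24 receptor that loads cargo into transport vesicles, with 3.45 from 49 reads (36.3 to 64.8), and sec-23, a subunit of the COPII vesicle coat, with 3.29 from 59 reads (44.9 to 76.1). They were the 2 highest regions of the right arm. pas-6, a subunit of the proteasome core, had 3.38 from 80 reads, nol-56, a protein of box C/D snoRNA particles, 3.28 from 65, and algn-12, an enzyme that builds N-linked sugar chains, 3.06 from 180 reads (154.7 to 208.3). his-35, a histone gene, had 3.51 from 54 reads.

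The rest of the 25 held 2 regions of C10G8.8 (3.06 and 3.01), both on the left arm, and the regions of C26F1.1 (3.31), T08B1.1 (3.04), F16B4.4 (3.03), F25E5.8 (2.93), C37C3.2 (2.93) and F35E12.6 (2.85). cpz-2, a cathepsin Z protease gene, had 2.97 from 131 reads. egl-8, which encodes a phospholipase C, had 2.90 at V:26322-29392, the first region of the chromosome. cyn-3, a cyclophilin, had 2.88, a second region of T04F3.1 had 2.82, and alh-4, an aldehyde dehydrogenase, closed the 25 at 2.81. Genes known only by a sequence name held 47 of the 212 regions.

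Of the 174 genes, 69 belonged to 1 of 27 lists of gene families and pathways, and 105 to none. On V 17 lists had at least 1 gene with a region and 10 had none. The counts below are to be read against the 3.48% of all genes on V, and no list was tested.

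The cuticle collagens, which build the exoskeleton and are made by the epidermis, had a region in 20 of 33 genes on V (60.6%, 42.1 to 77.1) and in 58 of 143 elsewhere (40.6%, 32.4 to 49.1). Their 21 regions lay mostly in the centre (19), with 17 between 9 and 14 Mb. The centre also holds 29 of the 33 listed collagen genes of V, of which 18 had a region. Each arm holds 2, of which 1 had a region, so the placement of the regions follows that of the genes. The folds were small over high coverage: the median was 1.69 over a control of 350 reads, and 16 of the 21 were under 2. Small folds can pass at such controls, the lowest listed on V above 100 reads being 1.14. col-147 had 2.32 from 391 reads (353.2 to 431.7), col-155 2.05 from 204 and col-12 2.03 from 887. The most covered region of V was that of col-139, with 2679 reads (2579 to 2782) over 1599 and a fold of 1.67. It was 1 of 2 collagen regions outside the centre, the other being that of col-42 on the right arm with 1.38.

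The 2 regions of col-162 differed in control level. Its region with the fold of 5.16 had a control of 21.8 reads, while the region next to it, V:13442715-13443303, had 843 reads (787.0 to 901.9) over 417 and a fold of 2.02. The 13 collagen genes of V without a region included col-140 and col-163 on the arms and, in the centre, a run of numbers from col-148 to col-153, and sqt-3, a collagen needed for body shape. Collagen genes resemble each other, and the handling of reads shared between copies was not given in the sources used here. A single region, at V:13201144-13202020, touched both col-159 and col-160, and that of lon-3 also overlapped ogdh-2.

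Enzymes of the gut lumen and the lysosome had a region in 13 of 42 genes on V (30.95%, 17.6 to 47.1) and in 12 of 53 elsewhere (22.6%). After cpz-2 came asp-13, an aspartyl protease, at 2.33 from 43 reads, the lysozyme lys-2 at 2.22 from 126 and cpl-1 at 1.99. The lowest fold, 1.48, was that of the lipase gene lipl-5, from 433 reads over 293. Neighbours in this group had regions side by side. lys-1 and lys-2 lie next to each other at 1.60 and 2.22, and asp-6 and asp-5, at 1.73 from 1092 reads and 1.56 from 643, are parted by a few kb. None of the 7 members on the right arm had a region, among them asp-1 and asp-15.

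The pair of pud-1.2 and pud-2.2, named for proteins upregulated in daf-2 mutants, stood out by read number. pud-2.2, at V:2323033-2323449, had 970 reads (909.9 to 1033) over 386 and a fold of 2.51. pud-1.2, at V:2322098-2322512, had 845 reads (789.0 to 903.9) over 405 and a fold of 2.09. In the authors' deposited table the −log10 q of pud-2.2, 134, was the highest on V, just above the 131 of col-139. Among the 51 regions of V with a control above 100 it also had the highest fold, followed by atp-5 with 2.44. Their namesakes pud-1.1 and pud-2.1 lie nearby on the left arm and had no region. Whether reads were split between these copies is unknown, so the values of the pair are uncertain.

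Respiratory chain and ATP synthase genes had a region in 3 of the 6 listed members on V. They were atp-5 and atp-4, subunits of the ATP synthase, with folds of 2.44 from 263 reads (232.2 to 296.8) and 2.09 from 241 (211.5 to 273.4), and nuo-5, whose 4 regions ranged from 1.42 to 1.85. Complex I genes outside the list were nduv-2 at 2.46 from 83 reads and ndua-1 at 2.66 from 56, the last region of the chromosome. Metabolic enzymes, a group drawn up after the genes were seen, held 24 regions in 15 genes, with folds from 1.29 to 2.81 and a median of 1.98. They included icl-1 with 4 regions from 1.29 to 1.80, pyc-1, a pyruvate carboxylase, with 3 from 1.67 to 2.07, pmt-2, which makes phosphocholine, with 2.60 from 216 reads, and the lipin gene lpin-1. The listed genes of fatty acid metabolism had 0 of 20 on V (upper interval bound 16.8%) and 16 of 75 elsewhere (21.3%).

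Protein folding genes had 5 of 18 members with a region. The J-domain co-chaperone dnj-25 had 2.07, the chaperonin subunit cct-7 1.94, dnj-19 1.74, and crt-1, the calcium-binding chaperone calreticulin of the endoplasmic reticulum, 1.37 from 1033 reads over 756. The fifth was hsp-90, with folds of 1.19 and 1.25. None of the hsp-16 genes on V, small heat shock genes that lie in clusters, had a region. The cyclophilins cyn-7 and cyn-3, in neighbouring regions, had 1.78 from 583 reads and 2.88 from 116.

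Ribosomal proteins had 3 of 7 genes with a region: rpl-28 at 1.75 from 744 reads, rps-16 at 1.70 from 1029 and rpl-8 at 1.14 from 1700 reads (1620 to 1783). The last was the lowest fold on V. Of the 4 genes on V in the translation factor list, which does not hold the release factor erfa-1, none had a region. Vesicle traffic genes had 4 of 15, with tmed-4 and sec-23 followed by rab-1, a GTPase of traffic from the endoplasmic reticulum to the Golgi, at 2.34 from 85 reads, and tmed-10 at 1.96 from 51. Splicing and RNA-binding genes had 2 of 6, prp-39 at 2.28 and snr-4 at 2.01. The proteasome and ubiquitin list had 1 of 15, pas-6.

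The list of neuropeptides and insulin-like peptides had 4 of 25 on V (16%, 4.54 to 36.1) and 2 of 128 elsewhere (1.56%). The 4 were nlp-27 at 2.73 from 75 reads (58.99 to 94.0), nlp-24 at 2.51 from 154, sbt-1, a chaperone of a peptide-processing protease, at 2.28 from 32, and nlp-33 at 2.05 from 342 (306.7 to 380.2). nlp-33 is known as an antimicrobial peptide gene of the epidermis, so the list's name does not describe all of its members. The cluster around nlp-27 had no further region: nlp-28, nlp-29, nlp-30, nlp-31 and nlp-34 had none. The synapse list had 1 of 28, snb-1, the vesicle protein synaptobrevin, at 2.16 from 110 reads.

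Outside the lists, 3 of the 8 genes on V with irg or dod symbols had a region, and 2 of 10 elsewhere; these symbols were picked after their values were seen. irg-5, named for its response to infection, had folds of 2.62 from 197 reads and 1.95 from 201, and irg-8 had 2.29 from 86. dod-19, named as a gene downstream of daf-16, had 2.37 from 183 reads and 1.32 from 131. dod-19 and irg-8 are neighbours on the left arm. C-type lectins, sugar-binding proteins many of which respond to infection, had 3 of 85: clec-1 at 2.71 from 116 reads, clec-41 at 2.49 from 149, and clec-50 at 2.35 from 75. Their share of 3.53% is close to that of all genes on V. Of 11 genes of glutathione transferases and antioxidant enzymes, gst-10 had a region, at 1.67.

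Membrane and cytoskeleton genes with regions were unc-70, the beta spectrin of the membrane skeleton, unc-60, an actin-severing cofilin, and several ion transporters. unc-70 had 4 regions from 1.67 to 2.48, and unc-60 had 2.28 from 32 reads. The ion transport list had 4 of 32: eat-6, the sodium pump, at 2.80 from 227 reads (198.4 to 258.5), catp-3 at 2.69 from 38, ncx-1, a sodium-calcium exchanger, at 2.00 from 28, and cmd-1, calmodulin, with 2 regions at 1.92 and 1.85. The V-ATPase had 1 of 2, vha-13, at 1.65, and the Hedgehog-related genes 1 of 32, grd-5, at 2.16. The body wall muscle list had 0 of 8 on V (upper interval bound 36.9%) and 7 of 35 elsewhere.

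Several large families had no region on V. Besides the chemoreceptors these were 167 nuclear hormone receptors (upper interval bound 2.19%), 91 F-box, BTB and MATH domain genes (3.97%), 83 cytochromes P450 and UDP-glucuronosyltransferases (4.35%) and 68 genes of small secreted peptide families (5.28%). Among these bounds, only that of the nuclear hormone receptors lies below the 3.48% of all genes on V. Elsewhere 4 of 106 nuclear hormone receptors had one, and 0 of 325 F-box, BTB and MATH genes. For cytochromes P450 and UDP-glucuronosyltransferases it was 3 of 58, and for the small secreted peptide families 8 of 152. Of 30 histone genes on V, only his-35 had a region, a share of 3.33% that is close to that of all genes on V. Both listed sperm genes of V had none.

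**Figure D5:**
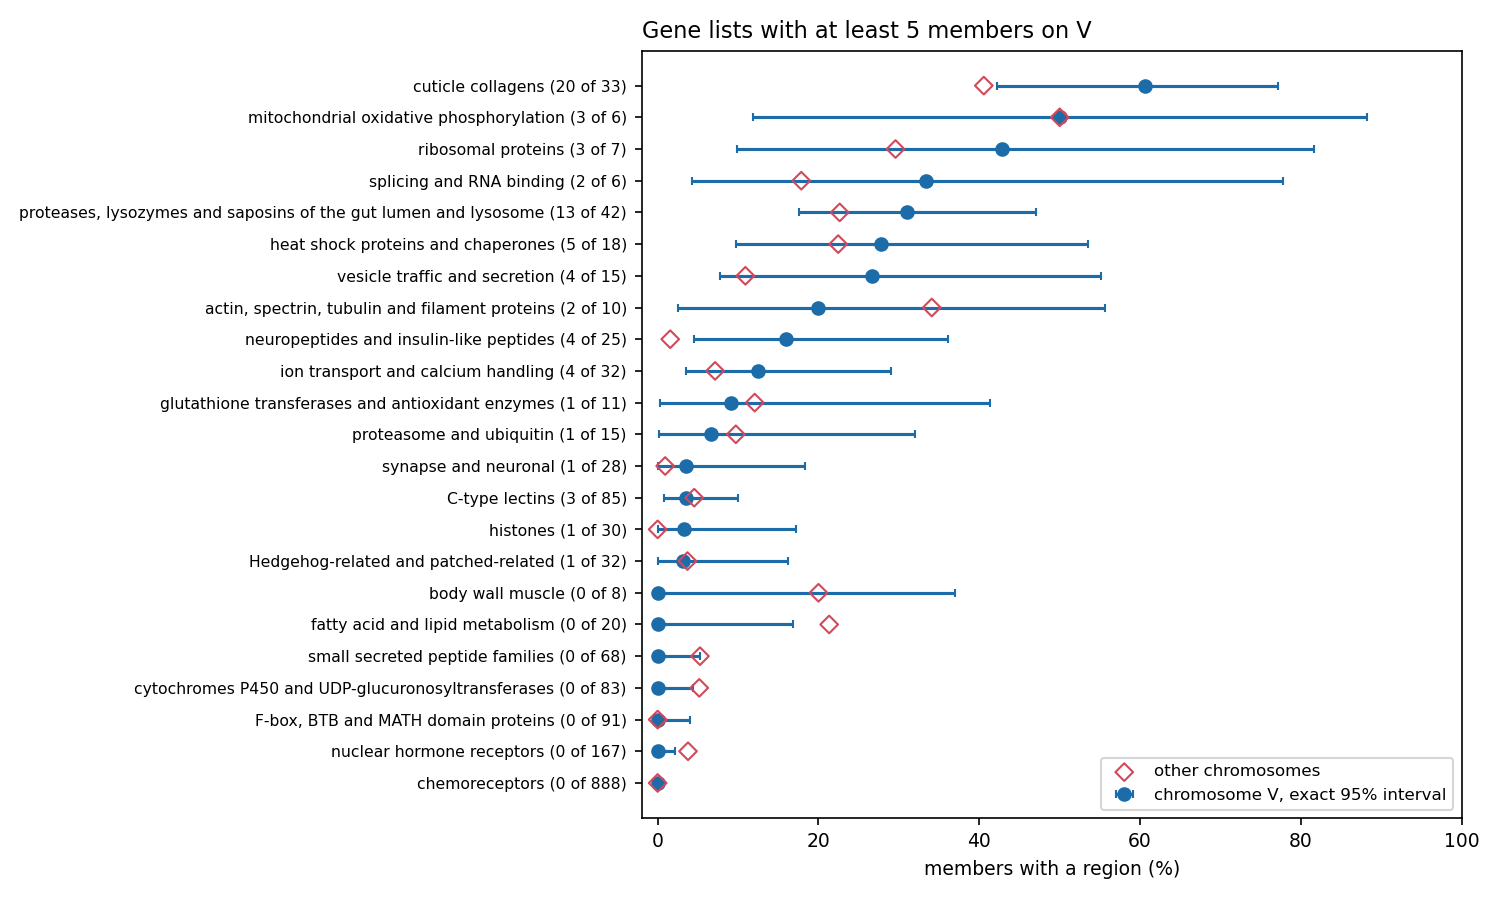
Circles give the percentage of each gene list's members on chromosome V that carried a region, with exact 95% intervals, and diamonds the percentage on the other chromosomes, for lists with at least 5 members on V. Cuticle collagens are highest with 20 of 33, and the 888 chemoreceptors are at 0.

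Some carrying genes stood next to each other. On V 30 of the 174 genes (17.2%) lay in 12 runs of adjacent protein-coding genes with regions, against 212 of 780 (27.2%) on the other chromosomes. The 2 sets are not alike in what makes a run. A region that touches 2 genes can make one by itself, and such regions were 3 of 212 on V and 57 of 995 elsewhere. The share of genes with a region was 3.48% on V and 5.21% elsewhere, and runs were not compared at equal shares. The longest run of the genome was on V, and held 6 genes within 14 kb at the dense stretch from 6 to 7 Mb: T05H4.11, atp-4, alh-4, gad-1, erfa-1 and hpo-19. Their folds were 2.48, 2.09, 2.81, 2.35, 3.66 and 1.89. Reads at the summits ran from 33 for gad-1 to 241 for atp-4, so the 6 neighbours differed in coverage as well as in fold. Runs of 3 were F54D11.4, sumv-2 and pmt-2 on the left arm, and the collagens col-144, col-145 and col-10, with folds of 1.53, 1.25 and 1.60. F54D11.4 and sumv-2 shared 1 region.

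Genes with 3 or more regions were T04F3.1 with 5, icl-1, nuo-5 and unc-70 with 4 each, and pyc-1 and par-1, a kinase of cell polarity, with 3 each. The 5 regions of T04F3.1 covered 82.0% of its span with folds of 4.21, 2.65, 2.57, 2.26 and 2.82, those of nuo-5 77.8% and those of icl-1 62.7%. In unc-70 and par-1 they covered 19.8% and 19.4%. In the first 3 of these genes the regions thus took up most of the gene, and in unc-70 and par-1 a small part.

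Some regions of V also overlapped annotated non-coding genes. Genes of the ncRNA class were overlapped by 9 of the 212 regions on V and by 44 of the 995 elsewhere. Among the 9 were the region of T04F3.1 with a fold of 4.21 and that of cest-24, a carboxylesterase-family gene, with 2.69. Annotated snoRNAs were overlapped by 3 regions on V and 10 elsewhere, those on V being in nol-56, unc-70 and rpl-8, and in each the summit lay outside the snoRNA. An antisense RNA was overlapped by 2, those of F53F1.2 and nduv-2, and a pseudogene by 1, that of algn-12. Neither table gives a strand, so sense and antisense reads cannot be told apart there. The tagged gene itself lies on chromosome I and had a region with a fold of 2.26.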

How the data were processed

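RIP-seq regions of FLAG-tagged MSTR-1 worms were analysed by position. Reads were handled with STAR and deepTools, per the submitters' processing notes; the peak caller, its control, the genome build and the strain filter were not given in the sources used here. Each row of the authors' deposited table (no header) holds a position, a score (10 times the −log10 q-value rounded down, as held in all 212 regions of V), the authors' fold (a ratio over control), the −log10 of a p-value and of a q-value, a summit offset and an unlabelled value. Summit reads and control levels were solved from fold = (reads + 1)/(control + 1) and the Poisson p-value. The solving was checked by turning recovered values back into folds and p-values with the same formula and solving again. That check scored only low read numbers and cannot show that the formula is the authors' own. The regions of V that missed a whole number all had at least 794 reads. Genes came from the RefSeq table of WBcel235 (1 shared base as the minimum); 210 regions lay wholly inside a gene as deposited, and 175 and 169 after shifts of −100 and 100 bp. Positions are 1-based and as deposited.

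The design planned no test, since no values per library exist, and none was made. Members and lists were chosen with earlier results of these data known. The naming rule took the 25 regions of V with the highest fold, genes with 3 or more regions, up to 4 members per list, the ends of the 5 longest gaps and mstr-1. In the collagen list, symbol classes were replaced by named members after the data were seen, because rol-3 is no collagen, and the cytochrome P450 symbol pattern was widened to take names such as cyp-33E1. Tables were computed in Python 3.11.15 with pandas 2.3.3, scipy 1.17.1 and numpy 2.4.6, and figures drawn with matplotlib 3.10.9.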

Additional observations from a re-analysis of the deposited data

Results flagged for a closer look

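The unlabelled last column of the table, which no comparison above uses, was above 0 in 56 of the 212 regions of V (26.4%, exact 95% binomial interval 20.6 to 32.9) and in 243 of 995 regions elsewhere (24.4%). On V it was 1 in 52 regions and 2 in 4, those of icl-1, pmt-2, rhr-1 and cpr-9. The regions above 0 had a median of 213 reads at the summit and a median fold of 1.855, those at 0 had 50 reads and 2.14. Of the 21 collagen regions 14 were above 0. What the column counts is not stated.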

How the results depend on the processing

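No paired analysis was possible because regions have no values by library, which also kept any replicate from being left out. The share of genes of V with a region was 3.48%. It became 4.24% without chemoreceptor genes, 4.54% without 4 families (chemoreceptors, F-box, BTB and MATH genes, nuclear hormone receptors and C-type lectins) and 1.02% with only regions whose unlabelled value is above 0, where fewer regions remain by construction. With 3 parts of equal length the centre had 89 regions and the last part 38, since the centre is shorter by construction. The 12 chemoreceptor-rich stretches without a region became 2 in bins of 500 kb and 5 at a share of at least 40%, so their number depends on the bin and the share; the summed length fell from 3800 kb to 1000 and 1200 kb. The median fold of 2.05 became 2.28 at the lowest control level, where the folds that pass are higher (the lowest was 2.00). The other 16 of 24 alternative values stayed within 1.5 times the counts or inside the 95% intervals. The alternatives by 4 families, unlabelled value, genes counted once and collagens left out were chosen after seeing the data. At the lowest control the median was 32 reads, which limits how well single folds are ordered.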
